A study of Mus musculus with 12 samples.

Results

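The genes described here are 32 marker genes of the blood vessel wall in the mouse optic nerve. They were taken by symbol from the 35275 genes of the count table, and comprise 19 genes of endothelial cells and 13 genes of mural cells, the pericytes and smooth muscle cells that wrap the endothelium. All 32 had counts in every library, the lowest being 3, and all 32 were among the 18344 genes tested. Poly(A) RNA was sequenced in 12 libraries from the optic nerve of mice that carry the label NF1, a model of neurofibromatosis type 1. Of these, 6 libraries were from mice given PBS, the vehicle, 3 from mice given carboplatin, a platinum compound that cross-links DNA, and 3 from mice given selumetinib, an inhibitor of MEK kinases. The sources used here do not give the NF1 allele, any Cre driver, the dose, the schedule or the age, and no group without the NF1 label was analysed here. No label ties a library to its own animal. The p-values below set a difference between groups against the spread of libraries within groups, which may be partly technical. In the main fit that spread is 1 estimate shared by all groups, PBS 1 included.

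The inner layer of a vessel is made of endothelial cells. In the brain, retina and optic nerve these cells are joined by tight junctions and carry transporters for glucose and organic anions and efflux pumps, which together make the barrier between blood and nervous tissue. Pericytes sit on the capillary wall and help to maintain that barrier, and smooth muscle cells ring the arterioles and set their width with a contractile apparatus of actin, myosin and their binding proteins. The labels call the sampled cells nerve cells, but a nerve holds glia, axons and vessels, and in bulk RNA fewer cells of a type and less RNA per cell cannot be told apart.

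The totals ran from 21793052 to 33375754 counts, and levels are given as CPM, counts scaled to a common library size. The libraries differed in their content of other tissue, given as the share of all counts from short marker lists. For skeletal muscle this share was 7.53% in PBS 1. It ran from 0.00183% to 0.0505% over PBS 2 to 6, from 0.0159% to 0.298% over the carboplatin libraries and from 0.00153% to 0.00297% over the selumetinib libraries. Neuron genes made up 0.204% and 0.248% of selumetinib 1 and 2, against 0.00476% to 0.0543% in the other 10 libraries, and oligodendrocyte genes were at 3.14% and 2.23% there and at 2.14% in PBS 1, against 5.16% to 8.45% in the rest. Genes of the retina and its pigment epithelium were at 0.0888% to 0.162% in carboplatin and at 0.00352% to 0.0222% elsewhere. Red blood cell genes were at 0.00125% to 0.00808% in carboplatin and at 0.0247% to 0.819% elsewhere. Y-linked genes had 0 counts in PBS 1, carboplatin 1 and all 3 selumetinib libraries. Results are therefore given with and without PBS 1, selumetinib 1 and selumetinib 2 where those libraries decide them.

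Promoter windows from RefSeq (GRCm38.p6, the same build as mm10), reaching from 250 bases before to 50 bases after a transcription start, were found for 21 of the 32 genes. The following 4 were picked by the levels of their genes and do not stand for the other members. Emcn and Tie1 were among the genes with their highest level in PBS 1. Slc2a1 and Slco1a4 had their lowest level there and their highest in carboplatin. A link between the sequences and these levels was not tested. The capitals mark the letters CAGGAA, or TTCCTG on the other strand, an element bound by ETS factors such as the endothelial regulator Erg. The windows are chr3:137340828-137341127 (+) for Emcn, chr4:118489800-118490099 (-) for Tie1, chr4:119108495-119108794 (+) for Slc2a1 and chr6:141856171-141856470 (-) for Slco1a4, each printed 5′ to 3′.
Emcn: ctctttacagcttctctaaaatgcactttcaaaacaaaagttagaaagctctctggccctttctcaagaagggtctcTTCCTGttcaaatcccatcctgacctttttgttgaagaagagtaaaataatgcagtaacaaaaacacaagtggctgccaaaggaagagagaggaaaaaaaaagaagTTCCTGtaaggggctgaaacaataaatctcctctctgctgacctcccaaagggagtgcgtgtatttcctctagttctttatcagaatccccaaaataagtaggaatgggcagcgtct
Tie1: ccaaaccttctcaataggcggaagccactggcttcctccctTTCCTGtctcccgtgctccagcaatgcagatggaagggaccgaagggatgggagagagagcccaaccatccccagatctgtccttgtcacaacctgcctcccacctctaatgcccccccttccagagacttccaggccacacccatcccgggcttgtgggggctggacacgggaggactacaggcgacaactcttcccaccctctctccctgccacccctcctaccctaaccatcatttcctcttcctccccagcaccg
Slc2a1: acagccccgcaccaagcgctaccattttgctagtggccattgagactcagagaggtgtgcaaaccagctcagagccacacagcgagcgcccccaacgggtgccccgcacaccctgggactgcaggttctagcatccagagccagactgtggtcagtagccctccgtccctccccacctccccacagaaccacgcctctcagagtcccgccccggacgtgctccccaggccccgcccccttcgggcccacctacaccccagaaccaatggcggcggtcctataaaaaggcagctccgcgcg
Slco1a4: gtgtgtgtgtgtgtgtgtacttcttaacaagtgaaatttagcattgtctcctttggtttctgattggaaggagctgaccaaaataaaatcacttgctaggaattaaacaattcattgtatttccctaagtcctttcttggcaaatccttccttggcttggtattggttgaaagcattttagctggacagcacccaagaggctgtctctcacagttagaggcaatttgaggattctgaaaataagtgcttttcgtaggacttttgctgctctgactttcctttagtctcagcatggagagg
The Emcn window held the element in 2 places, the Tie1 window in 1, and the windows of Slc2a1 and Slco1a4 not at all. Over the 26 windows of the 21 genes, searched on both strands, 10 held the element (38.5%), against 30.6% of all 32851 windows in the same table. The endothelial windows held it in 7 of 18 (38.9%) and the mural windows in 3 of 8 (37.5%). The CArG box, the serum response factor site known from smooth muscle promoters, was searched in its strict form without mismatches. It was in 0 of the 26 windows and in 1.63% of all windows. With so rare a match, 0 of 26 does not set the members apart. The glucocorticoid receptor palindrome was in 0 of 26 and in 0.00913% of all. These matches are letters in a window and do not show binding.

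Levels are compared between genes as the PBS median of CPM per kilobase of exon. The highest was that of Vtn, the gene of vitronectin, which brain pericytes secrete, at 171 CPM per kb. It was followed by Itm2a, a membrane protein gene of brain endothelium, at 83.7, and Slc2a1, the gene of the glucose transporter GLUT1, at 51.1. Tagln (32.2), Cldn5 (22), Abcb1a (21.2), Ly6a (18.8), Rgs5 (15.5) and Cdh5 (13.3) came next. The lowest were Emcn at 0.582 and Cnn1, the smooth muscle calponin gene, at 0.391 CPM per kb. The well-known barrier genes were thus present in these libraries. On the mural side the pericyte gene Vtn was highest, followed by the contractile gene Tagln, which lay above all other pericyte genes.

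**Figure D1:**
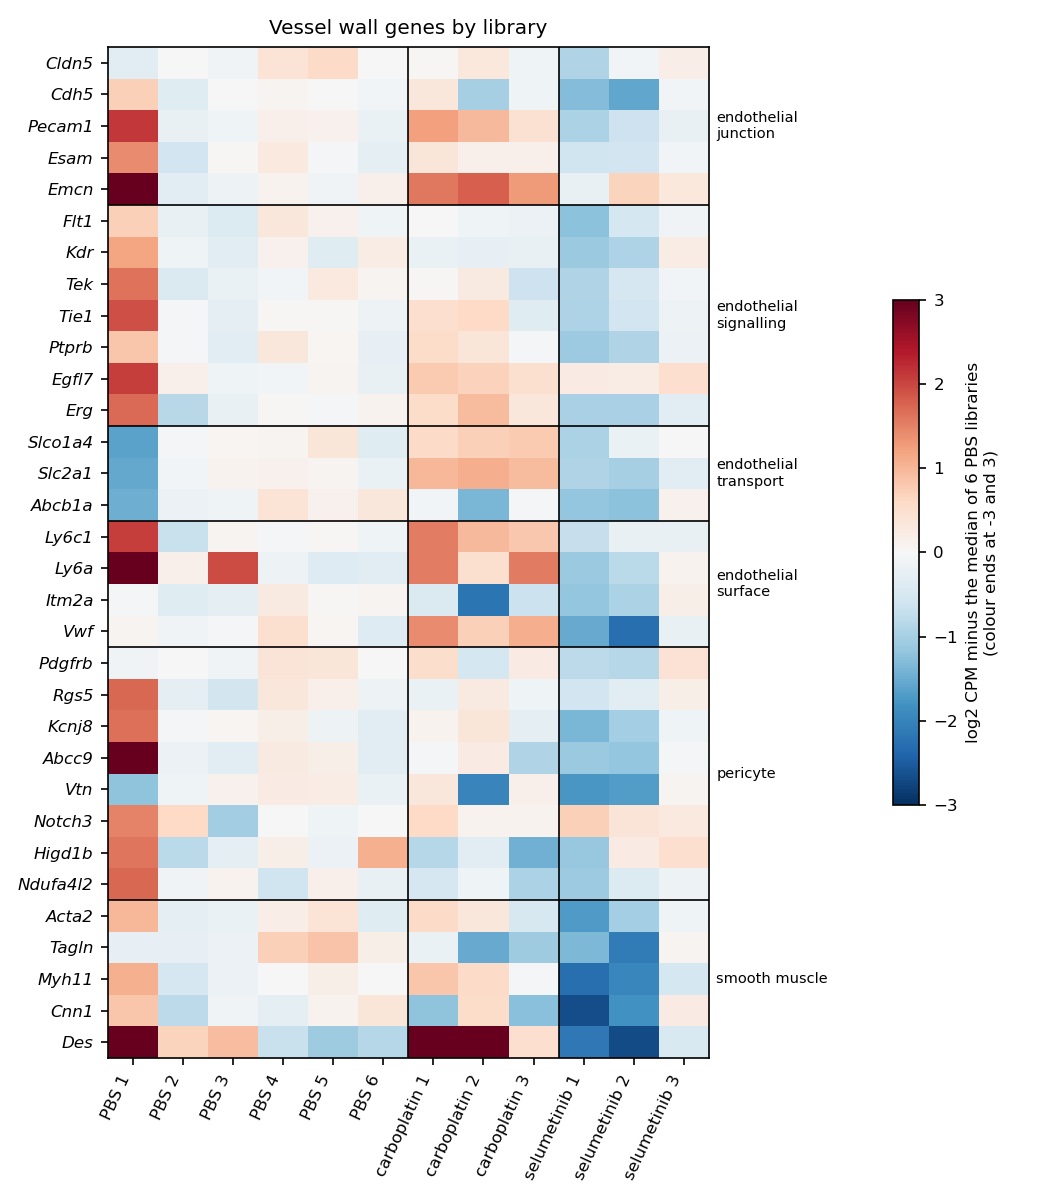
Level of each of the 32 vessel wall genes (rows) in each of the 12 libraries (columns), as log2 CPM minus the median of the 6 PBS libraries, with colours ending at -3 and 3. PBS 1 is red for most endothelial and mural genes but blue for Slco1a4, Slc2a1, Abcb1a and Vtn, and selumetinib 1 and 2 are blue for most genes.

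PBS 1 had the highest level of the 12 libraries for 23 of the 32 genes (71.9%), and among all tested genes it did so for 30.1%. Against the mean of PBS 2 to 6, its level was 289-fold for Des, 12-fold for Abcc9, 10.7-fold for Ly6a, 9.25-fold for Emcn, 4.60-fold for Ly6c1, 4.50-fold for Pecam1 and 4.32-fold for Egfl7. It was lower than in each of PBS 2 to 6 for 6 genes: Cldn5, Slco1a4, Slc2a1, Abcb1a, Pdgfrb and Vtn. The 3 transporter genes were at 0.321-fold (Slco1a4), 0.345-fold (Slc2a1) and 0.330-fold (Abcb1a) of that mean, and Vtn at 0.416-fold. The 3 transport genes thus stood below the other PBS libraries in this library, while all 7 signalling genes and 4 of the 5 junction genes (all but Cldn5) stood above them. Tagln (0.673-fold), Vwf (1.04-fold) and Itm2a (0.99-fold) lay within their range. PBS 1 was also the library with 7.53% skeletal muscle counts, and the part of that tissue in these levels was not tested.

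Under carboplatin, no vessel wall gene passed the test against PBS, and the barrier transporters Slc2a1 and Slco1a4 and the clotting factor gene Vwf stood highest. The test was edgeR's quasi-likelihood test with p-values adjusted by Benjamini-Hochberg over all tested genes, at an adjusted p under 0.05. It called 0 of the 32 genes, and 2.09% of all genes (1.57% as higher and 0.518% as lower). Of the 32, 3 were higher and 2 lower where p under 0.05 was taken without adjustment, against 8.12% and 8.43% of all genes. The median log2 fold change was -0.04 over the 19 endothelial genes, -0.44 over the 13 mural genes and -0.11 over all genes. Without PBS 1 these medians were 0.36, -0.02 and -0.03, and the log2 fold change was positive for 18 members in place of 11. Groups did not overlap for 4 genes: Slc2a1, Slco1a4 and Vwf were higher and Itm2a lower in all 3 carboplatin libraries than in all 6 PBS libraries. Among all genes, 6.97% were apart and higher and 5.22% apart and lower. DESeq2 called 1 of the 32, Slc2a1, and 7.62% of all genes.

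Among the transport genes, Slc2a1 (chromosome 4, 119108711 to 119137983 of mm10, plus strand) carries glucose across the endothelium and is also made by glia. Its PBS levels had a lowest value of 62.0 CPM in PBS 1, a median of 179 and a highest of 194. The carboplatin libraries held 355, 379 and 342 CPM and the selumetinib libraries 96.0, 88.9 and 144. All carboplatin values lay above all 9 others, and the means were 160 ± 50.4 (SD, n = 6) in PBS, 358 ± 18.9 (SD, n = 3) in carboplatin and 110 ± 29.9 (SD, n = 3) in selumetinib. Carboplatin exceeded PBS by 1.16 ± 0.30 (SE) on the log2 scale, and edgeR gave an adjusted p of 0.0733. It passed without PBS 1 (0.98, adjusted p = 0.00444). Against selumetinib Slc2a1 was 3.27-fold higher (log2 1.71 ± 0.36, adjusted p = 0.019). That call was lost when any carboplatin library, selumetinib 1 or selumetinib 2 was left out (adjusted p 0.0604 to 0.091), with log2 fold changes of 1.55 to 1.76. The retinal share was also highest in the 3 carboplatin libraries. It was 0.0888%, 0.127% and 0.162% in carboplatin 1 to 3 and at most 0.0222% elsewhere. Its part in the Slc2a1 levels was not tested.

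Slco1a4 encodes the organic anion transporter of brain capillaries. Its PBS levels were 13.2 CPM at the lowest (PBS 1), 40.2 at the median and 51.3 at the highest. Carboplatin 1 to 3 held 60, 66.3 and 69.3 CPM, and selumetinib 1 to 3 held 20.6, 35.2 and 40.1. The carboplatin libraries were again above all others. Against PBS its log2 fold change was 0.84 ± 0.33 (adjusted p = 0.242), and 0.65 without PBS 1 (adjusted p = 0.0667). Reads of this gene may be shared with its close relatives of the same family. The retinal share was again highest in carboplatin 1 to 3, at 0.0888%, 0.127% and 0.162%, against at most 0.0222% elsewhere. Its part in the Slco1a4 levels was not tested.

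Abcb1a, the gene of the efflux pump P-glycoprotein, did not share that pattern. Its PBS levels ran from 42.1 CPM (PBS 1) over a median of 116 to 155. Carboplatin held 109, 45.0 and 113 CPM and selumetinib 51.5, 49.1 and 126. The lowest 4 values came from PBS 1, carboplatin 2 and selumetinib 1 and 2, so all 3 groups overlapped. Its log2 fold change under carboplatin was -0.35, with a 95% interval of -1.22 to 0.53. A paralogue, Abcb1b, may share reads with it, and a predicted gene lies on the opposite strand of its exons.

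**Figure D2:**
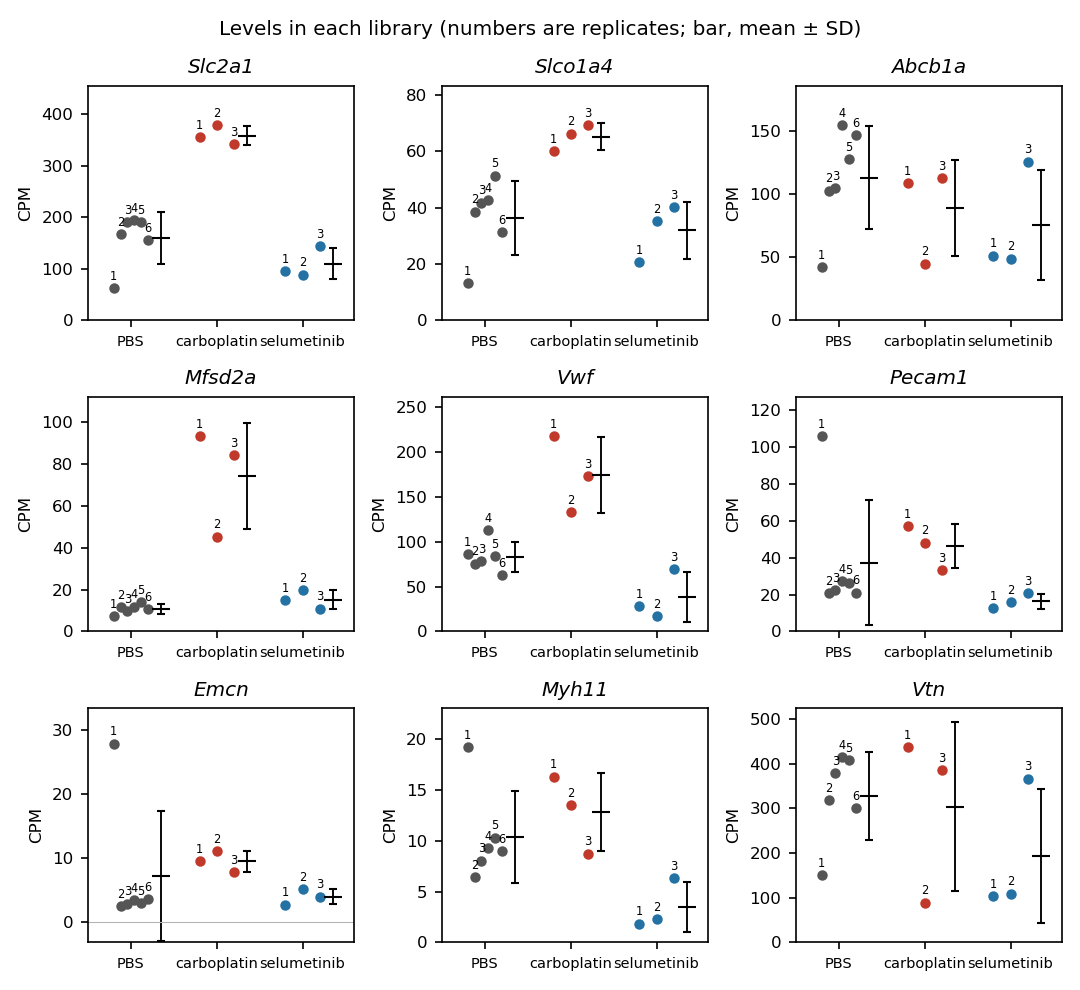
CPM in each library for 8 vessel wall genes and for Mfsd2a, by treatment, with points numbered by replicate and a bar for the mean ± SD (n = 6 PBS, 3 carboplatin, 3 selumetinib); the bar of Emcn in PBS runs below 0 because PBS 1 lies far from the rest. The carboplatin points lie above all others for Slc2a1, Slco1a4, Mfsd2a and Vwf, while carboplatin 2 and selumetinib 1 and 2 are low for Abcb1a and Vtn.

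Vwf encodes von Willebrand factor, the platelet-binding protein that endothelial cells store and release. The PBS levels were 62.5 CPM at the lowest, 81.3 at the median and 113 at the highest, with PBS 1 at 86.0 within their range. The carboplatin libraries held 218, 133 and 173 CPM and the selumetinib libraries 28.5, 16.9 and 69.6. Carboplatin was above all PBS values, and selumetinib 1 and 2 were below all of them while selumetinib 3 was not. The log2 fold change was 1.07 ± 0.35 for carboplatin against PBS (adjusted p = 0.159) and -1.12 ± 0.38 for selumetinib against PBS (adjusted p = 0.129). For carboplatin against PBS, Vwf passed in a fit of only these groups and in the fit without selumetinib 3. Between the drugs Vwf was 4.57-fold higher in carboplatin (log2 2.19 ± 0.44, adjusted p = 0.0161). The call was lost without carboplatin 1, carboplatin 3, selumetinib 1 or selumetinib 2 (adjusted p 0.059 to 0.0767). Without PBS 1, selumetinib 1 and selumetinib 2 together, which leaves selumetinib 3 alone in its group, the log2 fold change was 1.31.

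Of the other surface genes, Ly6c1 and Ly6a were highest in PBS 1. Ly6c1, a surface antigen gene of brain endothelium whose reads may be shared with its near copy Ly6c2, was at 61.3 CPM in PBS 1 and at 9.13 to 15.4 in PBS 2 to 6. Carboplatin held 41.9, 28.3 and 25.2 CPM and selumetinib 8.87, 12.4 and 12.3, so carboplatin lay between PBS 1 and the rest. Its log2 fold change against PBS was 0.58 (adjusted p = 0.623). Without PBS 1 it passed at 1.24 ± 0.21 (adjusted p = 0.00647). Ly6a, the Sca-1 antigen gene, was at 359 CPM in PBS 1, 87.5 in PBS 3 and 17.1 to 25.3 in the other 4 PBS libraries, at 65.7, 31.7 and 66.6 in carboplatin and at 10.4, 12.8 and 24.4 in selumetinib. Its log2 fold change against PBS turned from -0.69 to 0.69 without PBS 1, and neither passed. Itm2a was the member whose carboplatin levels all lay below PBS, at 108, 32.1 and 93.8 CPM against 114 to 176 in PBS, and its log2 fold change of -0.87 ± 0.39 had an adjusted p of 0.292.

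Of the junction genes, Cldn5, the gene of the tight junction protein claudin-5, differed least between carboplatin and PBS. It was at 25.2 CPM (PBS 1) to 46.5 in PBS with a median of 31.2, at 32, 38.8 and 28.3 in carboplatin and at 16.5, 29.4 and 35.8 in selumetinib. The groups overlapped, and the log2 fold change of carboplatin against PBS was -0.04 with a 95% interval of -0.54 to 0.45. Cdh5, which encodes VE-cadherin of the adherens junction, was at 43.4 to 92.2 CPM in PBS, at 70.8, 28.0 and 51.1 in carboplatin and at 22.9, 18.9 and 53.1 in selumetinib. Its low libraries were carboplatin 2 and selumetinib 1 and 2. Those 3 libraries were also the lowest in fibroblast and meningeal genes, with shares of 0.0618%, 0.102% and 0.0740% against 0.189% to 0.311% in the other 9, and the part of sheath tissue in these levels was not tested.

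Pecam1 and Emcn, which encode the adhesion molecule CD31 and the sialomucin endomucin of capillaries and veins, showed PBS 1 and carboplatin on the same side. Pecam1 was at 106 CPM in PBS 1 and 20.7 to 27.2 in PBS 2 to 6, and at 57.1, 48.1 and 33.3 in carboplatin. Emcn was at 27.9 CPM in PBS 1 and 2.47 to 3.49 in PBS 2 to 6, and at 9.52, 11.1 and 7.78 in carboplatin. For both genes every carboplatin library was above PBS 2 to 6 and below PBS 1. The log2 fold changes against all PBS were 0.31 (adjusted p = 0.801) and 0.40 (adjusted p = 0.828), and without PBS 1 they were 0.95 ± 0.20 (adjusted p = 0.0149) and 1.63 ± 0.23 (adjusted p = 0.00242). The selumetinib levels of Pecam1 were 12.5, 15.8 and 20.8 CPM and those of Emcn 2.69, 5.07 and 3.93. Esam, an adhesion molecule gene of endothelial tight junctions, was at 33.4 CPM in PBS 1, at 8.33 to 15.1 in PBS 2 to 6, at 13.7 to 15.9 in carboplatin and at 8.13 to 11.7 in selumetinib, and did not pass in any of the 3 comparisons.

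The signalling genes comprise the VEGF receptor genes Flt1 and Kdr, the angiopoietin receptor gene Tek with its relative Tie1, the phosphatase gene Ptprb that acts on these receptors, the secreted factor gene Egfl7 and the transcription factor gene Erg. None passed against PBS under either drug. Flt1 and Kdr were nearly level under carboplatin, at 59.7, 54.8 and 53.7 CPM and at 29.3, 28.5 and 29.0 CPM, inside the PBS ranges of 45.5 to 98.6 and 26.2 to 76.6. Selumetinib 1 to 3 held 25.7, 41.7 and 56.1 CPM of Flt1 and 15.5, 17.8 and 39.3 of Kdr, so the libraries of 1 group differed more than 2-fold. Tek and Tie1 were at 45.7 and 58.0 CPM in PBS 1, at 11 to 18.1 and 12.6 to 15.6 in PBS 2 to 6, at 9.55 to 17.8 and 11.7 to 22.9 in carboplatin and at 7.88 to 13.9 and 7.99 to 13.6 in selumetinib. Ptprb was at 43.4 to 96.2 CPM in PBS, 79.3, 69.8 and 52.6 in carboplatin and 25.4, 29.2 and 48.4 in selumetinib. Its carboplatin and selumetinib levels did not overlap, with a log2 difference of 0.97 ± 0.33 (adjusted p = 0.0707).

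Egfl7 and Erg also had every carboplatin library above PBS 2 to 6 and below PBS 1. Egfl7 was at 40.1 CPM in PBS 1, 8.17 to 10.5 in PBS 2 to 6, 16.5, 15.4 and 13.3 in carboplatin and 11.2, 11 and 13.5 in selumetinib, so its selumetinib libraries too lay above PBS 2 to 6. Without PBS 1 its log2 fold change under carboplatin was 0.68 ± 0.14 (adjusted p = 0.0127). Erg was at 19.2 CPM in PBS 1, 3.27 to 6.31 in PBS 2 to 6, 8.61, 11.5 and 7.51 in carboplatin and 2.97, 2.98 and 4.66 in selumetinib, with 0.78 ± 0.25 without PBS 1 (adjusted p = 0.0751). Exons of Egfl7 overlap other annotated genes on both strands, and the strand setting of the counting is not given in the sources used here, so its reads may include theirs.

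Without PBS 1, 6 of the 32 genes passed for carboplatin against PBS, all higher (Pecam1, Emcn, Egfl7, Slc2a1, Ly6c1 and Des), while 6.79% of all genes passed as higher. Counted by library, all 3 carboplatin values lay above each of PBS 2 to 6 for 8 genes: Pecam1, Emcn, Egfl7, Erg, Slco1a4, Slc2a1, Ly6c1 and Vwf. All 8 were endothelial, 42.1% of that list, against 0 of the 13 mural genes and 14.0% of all genes. The calls differed with the controls used: with PBS 1 to 3 as the only controls no member passed (0.0387% of all genes did), and with PBS 4 to 6 there were 7, all higher, beside 8.09% of all genes. The library names run from PBS 1 to 3 over carboplatin and PBS 4 to 6 to selumetinib, but no label ties a control to a drug. Skeletal muscle shares were at or above 0.0159% in PBS 1 to 3 and carboplatin and at or below 0.00297% in PBS 4 to 6 and selumetinib. With PBS 1 left out, carboplatin 1 and 2 held 0.298% and 0.235% and carboplatin 3 held 0.0159%, against at most 0.0505% in PBS 2 to 6. Retinal shares were 0.0888% to 0.162% in carboplatin and at most 0.0222% in PBS. Of the 6 genes that passed, all but Slc2a1 were also above PBS 2 to 6 in PBS 1. The part of this tissue content in the calls was not tested. Omitting PBS 1 with selumetinib 1 and 2, which also changes the pooled spread, gave 9 higher genes: these 8 and Des, with 8.41% of all genes higher.

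**Figure D3:**
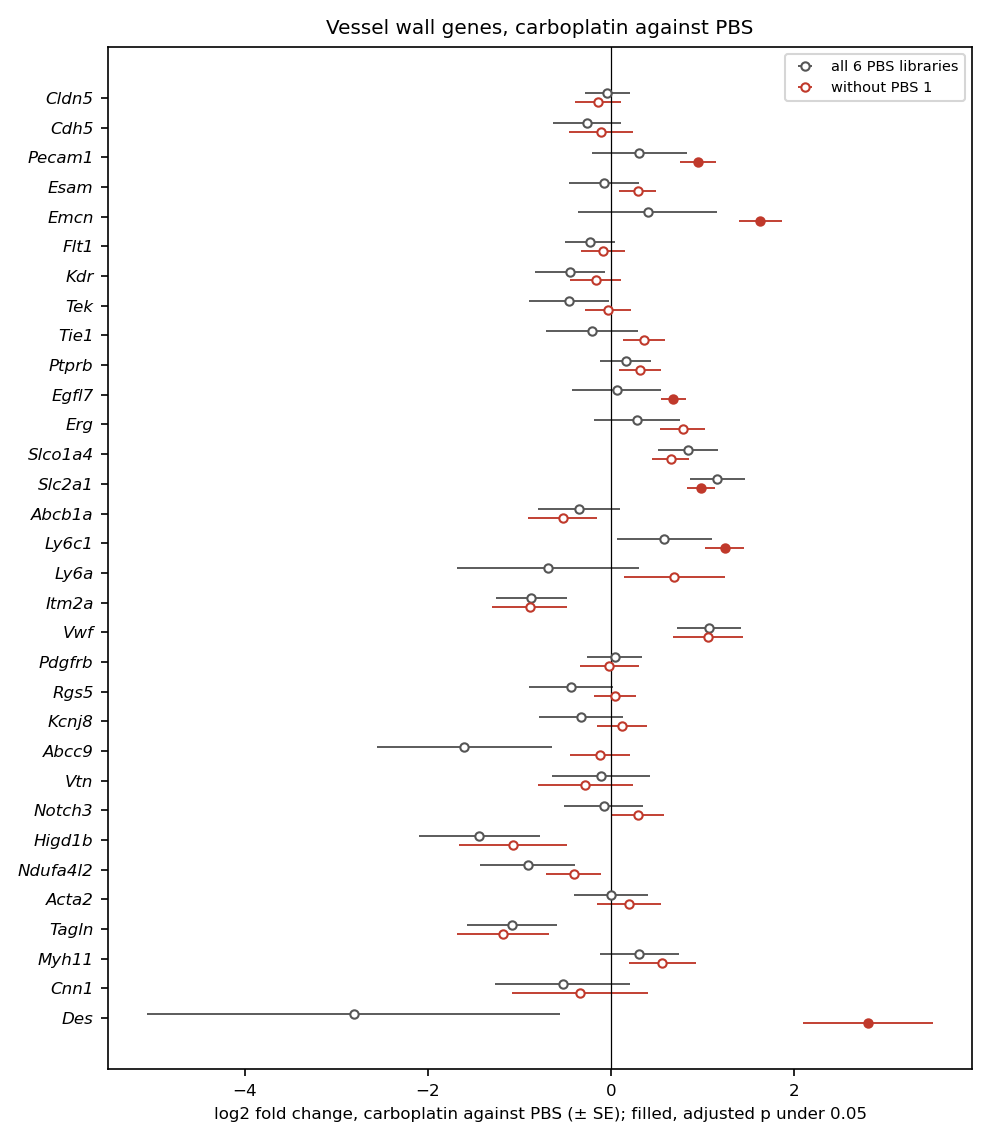
Log2 fold change of carboplatin against PBS (x axis, ± SE) for the 32 genes (y axis), with all 6 PBS libraries in grey and without PBS 1 in red; filled points have an adjusted p under 0.05. No grey point is filled, 6 red points are, and the point of Des moves from -2.81 to 2.80.

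On the mural side, no pericyte gene passed in any comparison. Pdgfrb, the PDGF-B receptor gene that marks pericytes, was at 51.0 to 72.1 CPM in PBS with a median of 55.2, at 78.9, 38.4 and 65.6 in carboplatin and at 32.1, 30.6 and 74.1 in selumetinib. Under carboplatin its log2 fold change was 0.04 with a 95% interval of -0.55 to 0.63. Vtn ran from 151 CPM (PBS 1) over a median of 348 to 414 in PBS, was at 437, 88.6 and 386 in carboplatin and at 104, 109 and 366 in selumetinib. Vtn and Pdgfrb thus had their lowest levels of the 12 libraries in carboplatin 2 and selumetinib 1 and 2, the same 3 that were low in Cdh5 and in the fibroblast and meningeal share. Carboplatin 2 was at 88.6 CPM of Vtn but at 379 CPM of Slc2a1, the highest of the 12 libraries. Vtn and Slc2a1 thus separated within 1 library, but their classes as a whole did not. In carboplatin 2 the transporter gene Abcb1a was low too (45.0 CPM). The pericyte gene Rgs5 (85.1 CPM) was there at the highest level of the carboplatin libraries.

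Rgs5, a G protein regulator gene of pericytes, and Kcnj8 and Abcc9, which encode the pore and the regulatory subunit of the pericyte ATP-sensitive potassium channel, were highest in PBS 1, at 233, 22.9 and 148 CPM. In PBS 2 to 6 they were at 47.7 to 88.2, 5.78 to 8.20 and 10.2 to 15.3 CPM. Carboplatin held 60.8 to 85.1, 5.87 to 9.29 and 6.84 to 15.2 CPM, close to those PBS libraries. Selumetinib held 47.3 to 79.7, 2.72 to 6.54 and 5.64 to 12.6 CPM. Abcc9 is also expressed in muscle. Leaving out PBS 1 moved the log2 fold change of Abcc9 under carboplatin from -1.60 to -0.12. Exons of Abcc9 overlap a gene on the opposite strand.

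Notch3, the receptor gene of mural cells, was the single member whose log2 fold change under selumetinib was positive, at 0.12 with a 95% interval of -0.71 to 0.96. Its levels were 8.06 to 46.3 CPM in PBS, 25.0, 17.8 and 17.8 in carboplatin and 27.5, 21.5 and 20.4 in selumetinib. Higd1b and Ndufa4l2, mitochondrial protein genes that mark pericytes, were low throughout, at 0.502 to 3.02 and 2.23 to 11.4 CPM in PBS and at 0.300 to 0.734 and 1.74 to 3.10 CPM in carboplatin. Their log2 fold changes under carboplatin were -1.44 (adjusted p = 0.306) and -0.91 (adjusted p = 0.415).

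Among the smooth muscle genes, Myh11, the smooth muscle myosin heavy chain gene, gave the clearest difference. Its PBS levels were 6.41 CPM at the lowest, 9.12 at the median and 19.2 at the highest (PBS 1), carboplatin held 16.3, 13.5 and 8.71, and selumetinib 1.84, 2.31 and 6.33. All selumetinib libraries lay below all PBS libraries, by a narrow gap for selumetinib 3. The log2 fold change was -1.57 ± 0.47 for selumetinib against PBS (adjusted p = 0.104) and 0.31 for carboplatin against PBS. Between carboplatin and selumetinib it was 1.88 ± 0.52, a 3.68-fold difference (adjusted p = 0.0379). The call was lost without PBS 4, PBS 5, PBS 6, any carboplatin library, selumetinib 1 or selumetinib 2 (adjusted p 0.0504 to 0.139). Without PBS 1, selumetinib 1 and selumetinib 2, which leaves selumetinib 3 alone in its group, the log2 difference was 1.00.

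Acta2, the smooth muscle actin gene, was at 12.5 to 32.1 CPM in PBS, 24.3, 20.3 and 11.5 in carboplatin and 4.95, 7.88 and 14.8 in selumetinib. Tagln, which encodes the actin-binding protein SM22, was at 53.5 to 115 CPM in PBS, 54.9, 22.3 and 30.1 in carboplatin and 24.8, 14.8 and 67.4 in selumetinib. Under carboplatin the log2 fold changes of Acta2 and Tagln were 0.00 with a 95% interval of -0.78 to 0.78, and -1.08 with an interval of -2.04 to -0.12 (adjusted p = 0.298). Exons of Tagln overlap Pcsk7 on the opposite strand. Cnn1 stayed at or below 1.95 CPM in every library.

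Des, the gene of the intermediate filament desmin, is shared by smooth muscle, some pericytes and skeletal muscle. It was at 2295 CPM in PBS 1, at 12.2, 14.7, 4.86, 3.63 and 4.25 in PBS 2 to 6, at 76.4, 79.6 and 10.9 in carboplatin and at 1.70, 1.14 and 5.64 in selumetinib. The levels followed the share of 16 skeletal muscle genes that do not include Des. That share was 7.53% in PBS 1, 0.298%, 0.235% and 0.0159% in carboplatin, 0.0354% and 0.0505% in PBS 2 and 3, and 0.00153% to 0.00297% in the other 6 libraries. Carboplatin against PBS gave a log2 fold change of -2.81 ± 2.25 with all libraries and 2.80 ± 0.71 without PBS 1 (adjusted p = 0.0324). Acta1, the skeletal muscle actin gene, was at 352, 332 and 16.8 CPM in carboplatin and at 0.159 to 56.6 CPM in PBS 2 to 6. The direction of Des therefore depends on a single library, and its part from vessel wall and from skeletal muscle was not tested.

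**Figure D4:**
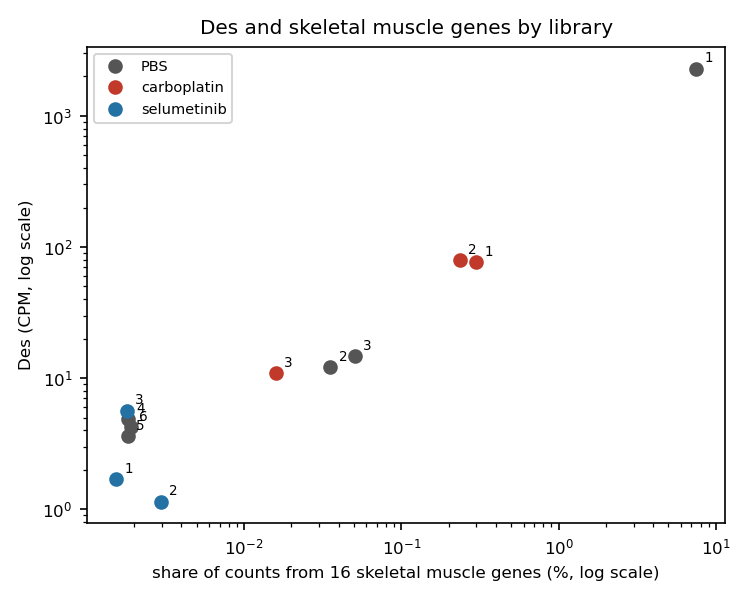
Des (y axis, CPM, log scale) against the share of counts from 16 skeletal muscle genes (x axis, %, log scale), 1 point per library, numbered by replicate and coloured by treatment. PBS 1 lies at 7.53% and 2295 CPM, carboplatin 1 and 2 next, and the PBS 4 to 6 and selumetinib libraries at the low end.

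To set the 2 sides of the wall against each other, the mean log2 CPM of the 13 mural genes was taken from that of the 19 endothelial genes in each library. The difference was 0.44, 1.03, 1.21, 1.18, 1.07 and 1.07 in PBS 1 to 6, 1.44, 1.27 and 1.82 in carboplatin and 1.50, 1.52 and 1.05 in selumetinib. All carboplatin libraries were above all PBS libraries, and selumetinib 3 was inside the PBS range. The group means were 1.00 ± 0.28 (SD, n = 6) in PBS, 1.51 ± 0.28 (SD, n = 3) in carboplatin and 1.36 ± 0.27 (SD, n = 3) in selumetinib, and no test is given for a score over chosen genes. The carboplatin mean exceeded the PBS mean by 0.51, by 0.65 without the smooth muscle genes, by 0.63 without Des and by 0.06 with medians in place of means. The selumetinib mean exceeded it by 0.36, but by -0.05 without the smooth muscle genes. The endothelial side alone was at 5.15 to 5.47 in carboplatin, at 4.65 to 5.03 in PBS 2 to 6 and at 5.86 in PBS 1. The mural side was at 3.35 to 4.03, at 3.62 to 3.87 and at 5.42, so PBS 1 was above every carboplatin library on both sides.

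**Figure D5:**
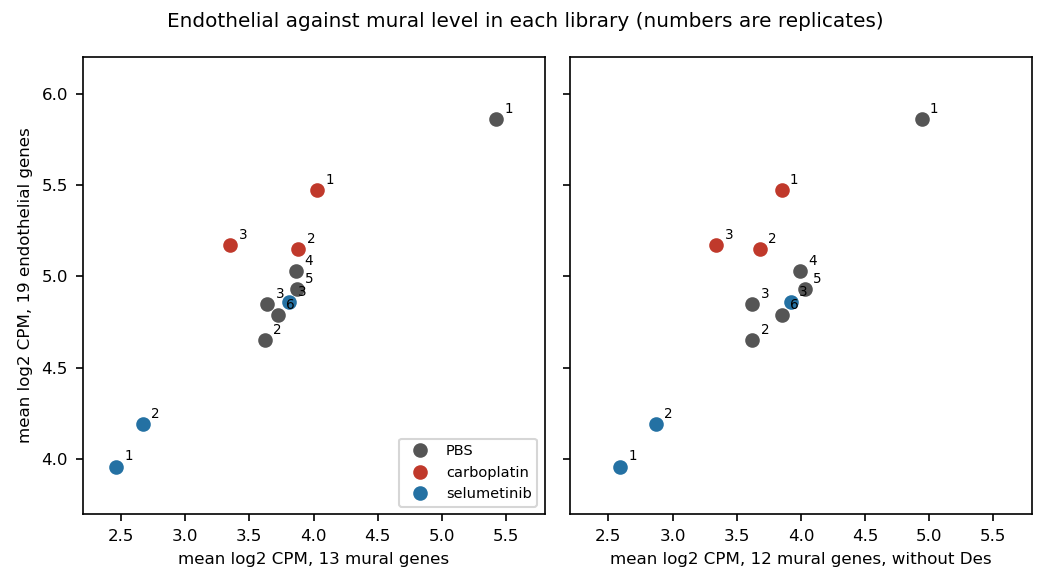
Mean log2 CPM of the 19 endothelial genes (y axis) against that of the mural genes (x axis; 13 genes on the left, 12 without Des on the right), 1 point per library, numbered by replicate and coloured by treatment. Carboplatin lies above PBS 2 to 6 on the y axis, with carboplatin 1 and 2 (4.03 and 3.88) above and carboplatin 3 (3.35) below their mural levels on the left, PBS 1 is highest on both axes, selumetinib 1 and 2 lie low on both axes, and selumetinib 3 lies among PBS 2 to 6.

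Under selumetinib most vessel wall genes had lower fitted levels than in PBS, without any passing the test. No gene passed of the 32 and 0% of all genes did so, while at an unadjusted p under 0.05 there were 10 lower and 0 higher members, against 10.0% and 14.0% of all genes. The log2 fold change was negative for 31 of the 32, with a median of -0.87 (-0.81 endothelial, -1.02 mural), against -0.09 over all genes. Without PBS 1 the median was -0.52, with 3 members positive. Groups were apart for 1 member, Myh11, which was lower, against 2.70% of all genes apart and lower and 3.23% apart and higher. DESeq2 called 3 as lower, Ly6a, Vwf and Myh11, with 3.43% of all genes lower. Selumetinib 1 was the lowest of the 12 libraries for 17 members (53.1%, against 8.43% of all genes) and selumetinib 2 for 6 (18.8%, against 16.7%), whereas selumetinib 3 was lowest for none and lay within the range of PBS 2 to 6 for 27 (84.4%, against 73.6% of all genes). Without selumetinib 3, 10 members passed as lower (Cdh5, Flt1, Kdr, Ptprb, Vwf, Pdgfrb, Acta2, Tagln, Myh11 and Cnn1) beside 8.88% of all genes. Without PBS 1, selumetinib 1 and selumetinib 2, which leaves selumetinib 3 alone with its spread taken from the other groups, none passed, the median was -0.05 (-0.05 endothelial, 0.00 mural) and 11 members were positive. With the presence of Y-linked counts as a covariate, 16 members passed as lower, beside 9.92% of all genes. All 3 selumetinib libraries and, among PBS, PBS 1 alone had 0 Y-linked counts, so that fit takes the covariate from PBS 1 and carboplatin 1 against the rest of their groups. Selumetinib and the absence of Y-linked counts largely coincide in these libraries, so their parts in these levels cannot be told apart. The neuron share was high and the oligodendrocyte share low in selumetinib 1 and 2, and the part of that tissue content in the vessel genes was not tested.

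Between the drugs, 3 members passed, all higher in carboplatin (Slc2a1, Vwf and Myh11), beside 14.0% of all genes in either direction, 5.65% higher and 8.35% lower. Without adjustment of p, 9 members were higher and 0 lower, against 13.6% and 17.9% of all genes. The fitted difference was positive for 29 of 32, with a median of 0.64 against -0.01 over all genes. Without PBS 1, selumetinib 1 and selumetinib 2 it was positive for 17, with a median of 0.08 (0.44 endothelial, -0.20 mural). Groups did not overlap for 12 members, all higher in carboplatin: Pecam1, Esam, Emcn, Ptprb, Erg, Slco1a4, Slc2a1, Ly6c1, Ly6a, Vwf, Myh11 and Des. Among all genes 20.9% were apart and higher and 20.8% apart and lower. In the same fit the log2 difference of Slc2a1 was 1.30. That fit leaves selumetinib 3 alone in its group, so no call from it is given.

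Other genes of the same pathways were read from the same fit. Of 28 further barrier genes, 1 was higher under carboplatin against PBS and none lower, beside 1.57% and 0.518% of all genes. It was Mfsd2a, which encodes the lipid transporter that brain endothelium uses to take up docosahexaenoic acid and that is also made by the retinal pigment epithelium. Its PBS levels were 7.40 CPM at the lowest, 11 at the median and 14.1 at the highest, carboplatin held 93.4, 45.3 and 84.3, and selumetinib 15.1, 19.7 and 10.8. The means were 10.8 ± 2.25 (SD, n = 6) and 74.3 ± 25.6 (SD, n = 3), a 6.88-fold difference (log2 2.78 ± 0.26, adjusted p = 0.000703), while the highest log2 fold change among the 32 members was 1.16. The call held with each library left out in turn, and was lost with PBS 1 to 3 as the only controls (adjusted p = 0.0661). The retinal share was 0.0888%, 0.127% and 0.162% in carboplatin 1 to 3 and at most 0.0222% elsewhere, so it was high in the same 3 libraries, and its part in the Mfsd2a levels was not tested. Against selumetinib, 3 of the 28 were higher, beside 5.65% of all genes: Mfsd2a (2.29 ± 0.32), the amino acid transporter gene Slc7a5 (0.85 ± 0.24, adjusted p = 0.0429) and the efflux pump gene Abcc4 (0.90 ± 0.26, adjusted p = 0.0452).

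Of 23 vascular ligand and receptor genes, 1 was higher under carboplatin against PBS, beside 1.57% of all genes. It was Notch4, an endothelial Notch receptor gene, at 6.27 to 16.6 CPM in PBS, with PBS 1 the highest and a median of 7.48, and at 28.9, 22.1 and 22 in carboplatin. The log2 fold change was 1.46 ± 0.28 (adjusted p = 0.0236), and 1.73 without PBS 1. The call was lost without PBS 6 or any carboplatin library (adjusted p 0.0573 to 0.122) and with PBS 1 to 3 as the only controls (adjusted p = 0.307). Selumetinib was at 6.44, 7.17 and 7.52 CPM, inside the PBS range. Between the drugs, 5 of the 23 were higher and 1 lower in carboplatin, beside 5.65% and 8.35% of all genes. Those with the smallest p were Notch4 (1.79 ± 0.34, adjusted p = 0.0144), Notch1 (0.76 ± 0.15, adjusted p = 0.0166) and, lower, Heyl, a Notch target gene of mural cells (-1.80 ± 0.34, adjusted p = 0.0139). Heyl was at 9.01, 5.71 and 6.47 CPM in carboplatin, 29.4, 29.1 and 15.5 in selumetinib and 7.51 to 17.3 in PBS.

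Of 15 tested genes of arterial, venous or activated endothelium, none passed against PBS. Gkn3, an arterial gene, came nearest under carboplatin, at 1.24, 0.652 and 0.300 CPM against 1.89 to 3.81 in PBS (log2 -1.91 ± 0.45, adjusted p = 0.0591). Between the drugs 3 were higher in carboplatin, beside 5.65% of all genes: Lrg1, a gene of activated venules (3.41 ± 0.91, adjusted p = 0.0349), the leukocyte adhesion gene Icam1 (1.11 ± 0.32, adjusted p = 0.0429) and the arterial kinase gene Bmx (1.55 ± 0.47, adjusted p = 0.0498). Of 13 tested further contractile genes none passed against PBS. Tpm1, a tropomyosin gene that skeletal muscle also uses, had the smallest p under carboplatin (log2 -2.16 ± 1.36, adjusted p = 0.464), and PBS 1 held 3550 CPM of it against 99.3 to 110 in PBS 2 to 6. Between the drugs 1 contractile gene was higher in carboplatin, Actg2, at or below 1.12 CPM in every library. None of 12 fibroblast and meningeal genes passed. Col3a1, a collagen gene of vessel and sheath connective tissue, was at 59.9, 36 and 48.7 CPM in carboplatin against 130 to 531 in PBS (log2 -2.54 ± 0.61, adjusted p = 0.0597). Under selumetinib against PBS the nearest were Ocln, the occludin gene (-0.70 ± 0.19, adjusted p = 0.0934), Tgfb1 (-1.02 ± 0.22, adjusted p = 0.0884), Bmx (-1.65 ± 0.43, adjusted p = 0.0884), Actg2 (-2.76 ± 0.89, adjusted p = 0.118) and the fibroblast gene Pi16 (-1.91 ± 0.89, adjusted p = 0.216). Counts differ by setting: without PBS 1, 4 of the 28 barrier genes were higher under carboplatin against PBS, beside 6.79% of all genes, and Mfsd2a and Notch4 were among the genes that passed in that fit.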

How the data were processed

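Poly(A) RNA of the optic nerve was measured in 12 libraries grouped by their treatment label (PBS 6, carboplatin 3, selumetinib 3). The authors deposited raw read counts per Ensembl gene. Their processing notes, per the labels, list mm10 as the build and name HTSeq, STAR, DESeq2, Trimmomatic and FastQC; versions, annotation release and strand setting are not given in the sources used here. GENCODE M21 holds 34490 of the gene IDs and gave coordinates, exon lengths and overlapping genes.

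Low genes were removed by filterByExpr of edgeR 4.0.16 under R 4.3.3 (minimum count 10, minimum total 15). With TMM factors, a robust quasi-likelihood model of the 3 groups was fitted over all 12 libraries (common dispersion 0.272), and calls have a Benjamini-Hochberg adjusted p under 0.05. The SE is the absolute log2 fold change divided by the square root of the F statistic. The 95% intervals were built from it with the multiplier of a normal distribution. They are therefore narrower than the F test implies, and an interval can leave out 0 where the test does not pass. CPM used TMM library sizes, and log2 CPM a prior count of 2. The tests were checked on simulated counts. No 2 libraries held identical counts.

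All 32 members are named. Of each other list, the genes called in a comparison are named, at most the 3 with the smallest p, or the 1 with the smallest p where none was called; for lists of other tissues summed shares are given instead. Acta1 was chosen after its values were seen. The members and the 19 lists were chosen with earlier results of these data known. Of 193 listed genes 192 were matched by symbol and 1 by ID.

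The alternatives were DESeq2 1.42.0, RLE factors, no filter, a fit of just the pair of groups in question, controls limited to PBS 1 to 3 or to PBS 4 to 6, a Y-linked covariate, the replicate number as a term, PBS 1, selumetinib 1 and selumetinib 2 left out, and each library left out in turn. For the endothelial minus mural level they were RLE factors, medians, no smooth muscle genes and, added after seeing the data, no Des.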

Additional observations from a re-analysis of the deposited data

Results flagged for a closer look

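In 19 of 33 sets of 6 PBS values (the 32 genes and the endothelial minus mural level), 1 library lay farther from the rest than Dixon's test allows at the 95% level. It was PBS 1 in all 19, the highest in 17 and the lowest in 2, and the sets share that library, so the flags are not independent; chance flags about 1 in 20 sets.

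Among endothelial genes, PBS 1 was highest for Cdh5 (92.2 CPM, the next library 59.2), Pecam1 (106, next 27.2), Esam (33.4, next 15.1), Emcn (27.9, next 3.49), Kdr (76.6, next 39.3), Tek (45.7, next 18.1), Tie1 (58.0, next 15.6), Egfl7 (40.1, next 10.5), Erg (19.2, next 6.31), Ly6c1 (61.3, next 15.4) and Ly6a (359, next 87.5). Among mural genes it was highest for Rgs5 (233, next 88.2), Kcnj8 (22.9, next 8.20), Abcc9 (148, next 15.3), Ndufa4l2 (11.4, next 3.79), Myh11 (19.2, next 10.3) and Des (2295, next 14.7). It was lowest for Slc2a1 (62.0 CPM, next 156) and for the endothelial minus mural level (0.44, next 1.03).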

How the results depend on the processing

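Members called in carboplatin against PBS numbered 0 in the main fit. They numbered 1 with DESeq2 or the Y-linked covariate (Slc2a1) and 1 with only these groups (Vwf). With PBS 4 to 6 they numbered 7, and without PBS 1, selumetinib 1 and selumetinib 2 they numbered 9. With each library left out they numbered 0 to 6 (6 without PBS 1, and 1, Vwf, without selumetinib 3). All genes called there numbered 383, and 1469 (DESeq2), 7 (PBS 1 to 3), 2202 (PBS 4 to 6), 640 (Y-linked covariate), 5 (replicate block), 3073 (without those 3 libraries) and 73 to 1941 (each left out). In selumetinib against PBS, members numbered 0, 3 with DESeq2, 16 with the Y-linked covariate and 0 to 10 with each left out (10 without selumetinib 3), and all genes 0, 2272 (DESeq2), 3 (PBS 1 to 3), 2605 (Y-linked covariate), 2 (replicate block) and 0 to 4089. Between the drugs, members numbered 3, 9 with only these groups, 0 with PBS 1 to 3 and 12 with PBS 4 to 6. They numbered 16 with the Y-linked covariate and 0 with the replicate block. With each library left out they numbered 0 to 11 (11 without PBS 1, 7 without selumetinib 3, 1 without carboplatin 2). They numbered 0 without carboplatin 1, carboplatin 3, selumetinib 1 or selumetinib 2. Without the 3 libraries selumetinib 3 stands alone in its group, so no count between the drugs is given there. All genes numbered 2568, and 4620, 97, 5641, 4290, 50 and 516 with DESeq2, PBS 1 to 3, PBS 4 to 6, the Y-linked covariate, the replicate block and without the 3 libraries, and 134 to 5974 with each left out. Des under carboplatin turned from -2.81 to 3.72 (PBS 4 to 6), 2.78 (without the 3 libraries) and 2.80 (without PBS 1; -3.13 to 2.80 with each library left out), and Ly6a from -0.69 to 1.57 (PBS 4 to 6). Of the gene values 2741 kept direction and side of the threshold or stayed uncalled, 130 newly passed and 346 no longer passed; in a single setting up to 12 members changed sign without being called. The endothelial minus mural difference moved to 0.06 with medians (carboplatin) and to -0.05 without smooth muscle genes (selumetinib). Same-numbered libraries did not deviate together throughout (correlations -0.12 to 0.38), so the numbers were not taken to pair them. The causes of these moves were not tested. With a common dispersion of 0.272 and 3 libraries in a treated group, precision is limited as the intervals show.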
